A study of Rattus norvegicus with 37 samples.

Results

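Complete transection of the spinal cord (TX SCI) was compared with contusion (CONT SCI) through the liver transcriptome of 8 female Sprague Dawley rats, an outbred strain, out of 37 rats sequenced in the study. The members were chosen by their labels, with earlier results of these data known. They were the 4 transected rats and the 4 contused rats that were given no exercise. All came from the SCI + Exercise sample set of 22 rats. Both injuries were made at thoracic level T2, at an age that the sample labels give as 8 to 9 weeks, estimated from weight. Afterwards all 8 rats were kept in tiny cages, a housing that restricts movement. Livers were taken 8.5 weeks after the injury in TX SCI and 11.5 weeks after it in CONT SCI, so the kind of injury and the time since injury differed together and cannot be told apart. The 4 uninjured rats of the set (No SCI, tiny cages) were used to show the uninjured level. The other contused rats of the set swam (CONT SCI + SWIM, 5 rats) or walked in shallow water (CONT SCI + SWW, 5 rats), and the separate SCI + In-Cage Activity set of 15 rats held contused rats in tiny or large cages and uninjured rats in standard cages, 5 of each.

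A contusion bruises the cord and spares some of the fibres that cross the injury, whereas a complete transection cuts all of them. High in the thoracic cord, a complete transection separates the brain stem from the sympathetic neurons that supply the abdominal organs, the liver among them. A contusion there does so in part, and the vagus nerve reaches the liver outside the cord. The liver controls blood glucose, makes and clears lipoproteins and bile acids, produces acute phase proteins and breaks down drugs, and disturbed lipid and glucose metabolism is known after spinal cord injury. The genes below are given by their Ensembl identifiers, because no gene names stand beside them in the files. For the same reason no gene was assigned a function, and the labelled tissue was not checked against liver markers.

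The libraries of both groups were deep. The total of reads counted on genes was 29685630 to 30948754 in TX SCI (median 29820376) and 28427149 to 35765326 in CONT SCI (median 33985706). Genes with at least 1 read numbered 15429 to 15573 in the CONT SCI libraries and 15463 to 15624 in TX SCI replicates 1 to 3, but 14682 in TX SCI replicate 4. The 10 most abundant genes took 21.7% to 24.8% of the counts in TX SCI and 24.8% to 25.5% in CONT SCI. TX SCI replicate 4 stood apart from the rest in several measures, and the main counts are given with and without it. In the authors' alignment summary, the share of uniquely mapped reads was lower in every TX SCI library than in every CONT SCI library. It was lowest of the 8 libraries in TX SCI replicate 4, then replicate 2. This share thus moved with the groups, also without TX SCI replicate 4. The part of alignment in the results was not tested. The rats were housed in pairs of the same group, and the tests treated each rat as independent, without regard to cage. The p-values judge differences against the spread between the rats of a single experiment.

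The transected rats differed from each other more than the contused rats did. Distances between libraries were taken over the 12468 genes that passed the filter on low counts, as Euclidean distances of log2(CPM + 1), where CPM is the read count of a gene scaled to a common library total. The mean distance between 2 rats was 56.7 within TX SCI (30.8 to 74.1 over 6 pairs), 35.6 within CONT SCI (30.1 to 40.3 over 6 pairs) and 52.0 between the groups (40.7 to 69.3 over 16 pairs). Thus an average pair of transected rats lay farther apart than an average pair of a transected and a contused rat. This order rested on TX SCI replicate 4, with mean distances of 68.9 to the other transected rats and 63.8 to the contused rats. Without that rat the order was reversed. The distance of a rat to the centre of its own group was 35.04 ± 8.63 (SD, n = 4) in TX SCI and 21.8 ± 1.91 (SD, n = 4) in CONT SCI. The difference in spread was 13.2, with an exact two-sided permutation p of 0.0286, which is the smallest that 70 relabellings of 4 against 4 rats can give. TX SCI replicate 4 lay 48.0 from its group's centre, against 30.5 to 31.2 for the other 3 transected rats and 20.5 to 24.6 for the contused rats. Without this rat the difference in spread was 3.93 (exact permutation p = 0.857). Leaving out any other rat kept it at 12.8 to 15.9, with an exact permutation p of 0.0571 to 0.143 when that rat was TX SCI replicate 1, 2 or 3 or CONT SCI replicate 4.

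**Figure D1:**
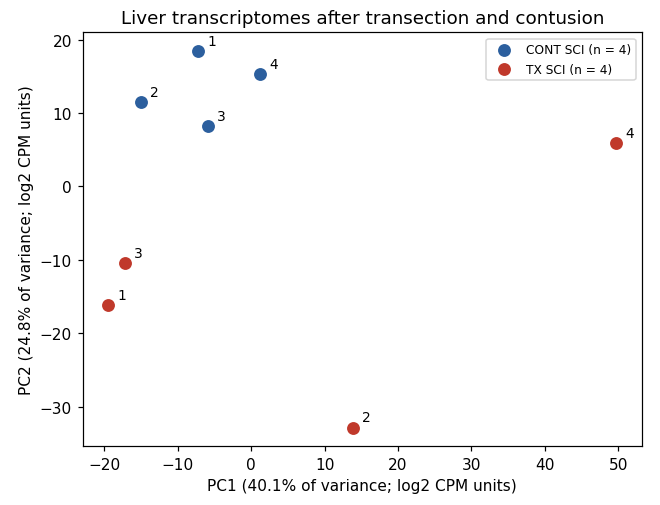
Principal components of log2(CPM + 1) values of 12468 genes in the 4 TX SCI and 4 CONT SCI livers, with PC1 (40.1% of the variance) on the horizontal axis and PC2 (24.8%) on the vertical axis, both in log2 CPM units. Each point is 1 rat with its replicate number. The contused rats lie close together, and TX SCI replicate 4 lies alone at the right. All 4 transected rats lie below all contused rats on PC2, with replicate 4 the least far below.

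When all 8 rats were used, a separation of the groups beyond the spread between rats was not shown. The share of the squared distance between libraries that lay between the groups was 22.5%, with an exact one-sided permutation p of 0.114. Without TX SCI replicate 4 this share was 33.7% (exact permutation p = 0.0286, the smallest that 35 relabellings can give). With any other rat left out it was 20.8% to 27.8% (exact permutation p = 0.0571 to 0.286). In the plot of the principal components, PC1 mainly set TX SCI replicate 4 (49.7) apart from the other 7 rats (-19.5 to 13.8). On PC2, TX SCI replicates 1, 2 and 3 had scores of -16.2, -32.8 and -10.4, and the contused rats had scores of 8.24 to 18.4. TX SCI replicate 4, at 5.95 on PC2, was also below every contused rat there, but next to them. The library nearest to it over all genes was CONT SCI replicate 4. TX SCI replicates 1 and 3 were nearest to each other, and replicate 2 was nearest to replicate 1.

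Gene by gene, 4 genes differed between the groups in edgeR's quasi-likelihood test (p under 0.05 after Benjamini-Hochberg adjustment). These were 0.0321% of the 12468 genes tested. ENSRNOG00000033923 and ENSRNOG00000013867 were lower after transection (2 genes, 0.0160%), and ENSRNOG00000037380 and ENSRNOG00000014254 were higher (also 2 genes, 0.0160%). In bulk tissue, a lower level from fewer cells of a type and one from less RNA per cell cannot be told apart. At an unadjusted p under 0.05 there were 1673 genes (13.4%), 834 higher and 839 lower in TX SCI, and DESeq2 called 363 genes at an adjusted p under 0.05 (2.56% of the 14197 to which it gave an adjusted p), 201 higher and 162 lower. All 4 genes called by edgeR were also called by DESeq2.

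**Figure D2:**
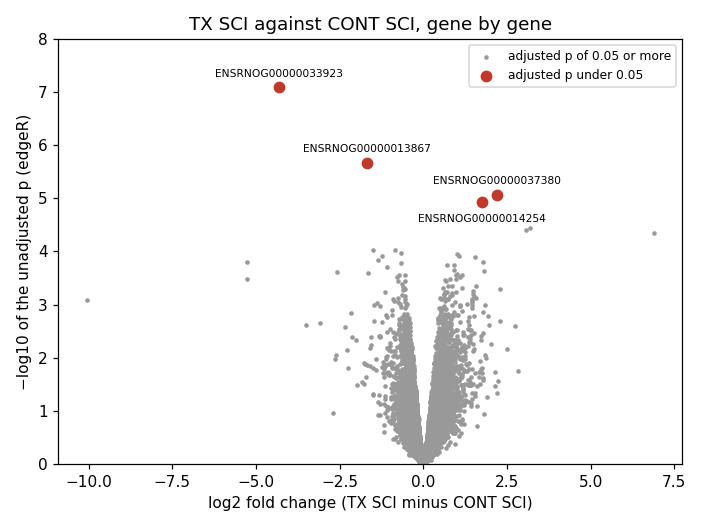
Log2 fold change (TX SCI minus CONT SCI, horizontal axis) against the −log10 of the unadjusted p from edgeR (vertical axis) for 12468 genes, 1 point per gene. The 4 larger points, named by their identifiers, are the genes with an adjusted p under 0.05; 2 lie to the left and 2 to the right, and ENSRNOG00000033923 has the smallest p.

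ENSRNOG00000033923 had the smallest p of all genes and was almost silent after transection. Its reads numbered 33, 12, 11 and 14 in TX SCI replicates 1 to 4, and 484, 358, 259 and 296 in CONT SCI replicates 1 to 4. Scaled together with No SCI, these were 0.942, 0.389, 0.341 and 0.499 CPM in TX SCI and 14.04, 10.5, 9.41 and 9.66 CPM in CONT SCI, with no overlap. The level in CONT SCI was 19.8-fold that in TX SCI (log2 fold change -4.31, SE 0.32, edgeR adjusted p = 0.00102). In No SCI it was 16.0, 12.7, 9.52 and 12.6 CPM, so the uninjured rats were at the level of the CONT SCI rats. This gene was called in all 8 fits with 1 rat left out (adjusted p 0.000178 to 0.0131).

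Over the 37 rats of the study, however, the low level of ENSRNOG00000033923 was not particular to transection. With all 37 libraries scaled together, 22 rats had 0.220 to 1.24 CPM and 15 rats had 6.27 to 19.5 CPM, and none lay between. The low range held the 4 TX SCI rats, 1 of the 5 SWIM rats, 2 of the 5 SWW rats and all 15 rats of the In-Cage set, the 5 uninjured ones included. The high range held every CONT SCI and No SCI rat of the Exercise set, 4 SWIM rats and 3 SWW rats. In medians, No SCI was highest at 12.1 CPM, then CONT SCI at 9.65, SWIM at 8.04 and SWW at 7.71, whose ranges overlapped, and TX SCI at 0.431 CPM was beside the 3 In-Cage groups at 0.537 to 0.737.

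ENSRNOG00000013867 was the other gene that was lower after transection. It had 3.77, 4.41, 3.62 and 3.10 CPM in TX SCI replicates 1 to 4 and 9.98, 10.9, 12.7 and 14.1 CPM in CONT SCI replicates 1 to 4. Every transected rat was below every CONT SCI rat, and the level in CONT SCI was 3.19-fold that in TX SCI (log2 fold change -1.68, SE 0.18, edgeR adjusted p = 0.0136). The uninjured rats varied from 6.70 to 23.9 CPM (13.8 ± 7.25, SD, n = 4), a wider range, which enclosed that of CONT SCI and lay above that of TX SCI. The call was lost (adjusted p 0.0574 to 0.088) when TX SCI replicate 1 or 3 or CONT SCI replicate 3 or 4 was left out. Among the 37 rats, other groups also reached the TX SCI levels (3.05 to 4.21 CPM on the scale of all rats), with a lowest value of 3.16 CPM in SWIM and of 2.69 CPM in the uninjured In-Cage rats.

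ENSRNOG00000037380 was higher after transection and was a gene of few reads, with 53.9 on average per library. It had 94, 90, 92 and 79 reads in TX SCI replicates 1 to 4, and 23, 15, 24 and 14 reads in CONT SCI. The CPM values were 2.68, 2.92, 2.85 and 2.82 in TX SCI, 0.667, 0.440, 0.872 and 0.457 in CONT SCI and 0.763, 0.453, 1.17 and 1.07 in No SCI. The transected rats were thus close to each other and above all CONT SCI and No SCI rats of the Exercise set. The difference from CONT SCI was 4.63-fold (log2 fold change 2.21, SE 0.27, edgeR adjusted p = 0.0355). The call was kept in 1 of the 8 fits with a rat left out, that without TX SCI replicate 4 (adjusted p 0.0105), and in the other 7 the adjusted p was 0.0562 to 0.183. High levels were also seen outside TX SCI, in SWW (median 2.95 CPM, 1.26 to 3.24) and in the In-Cage groups (medians of 1.57 to 2.44 CPM), against 2.61 to 2.78 CPM in TX SCI on the scale of all rats.

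ENSRNOG00000014254, an abundant gene with 4096 reads on average per library, was also higher after transection. It had 223.8, 183.8, 177.9 and 216.6 CPM in TX SCI replicates 1 to 4, and 48.4, 71.0, 79.4 and 38.1 CPM in CONT SCI. The ranges were far apart, and the difference was 3.38-fold (log2 fold change 1.76, SE 0.22, edgeR adjusted p = 0.0366). In No SCI the values were 169.1, 181.4, 68.3 and 133.6 CPM, so that 3 of the uninjured rats were above all CONT SCI rats and 1 reached into the range of TX SCI. As for the previous gene, the call was kept only in the fit without TX SCI replicate 4 (adjusted p 0.0204), and in the other 7 the adjusted p was 0.0562 to 0.154. It was the only one of the 4 genes at which all 4 transected rats were above all 14 contused rats of the same set. Among the In-Cage rats, those with and without contusion reached higher values, up to 402.0 CPM in a contused rat in a large cage.

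**Figure D3:**
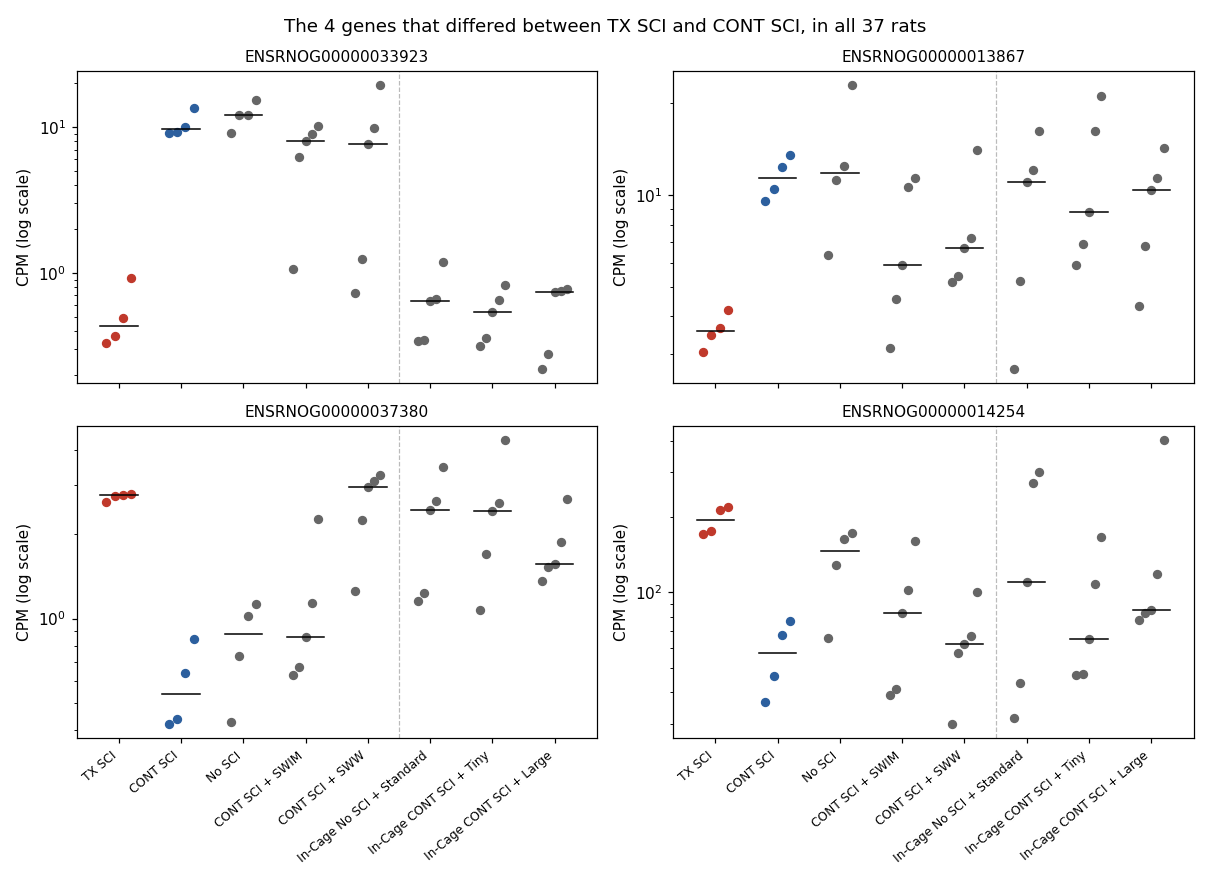
Levels in CPM, with all 37 libraries scaled together and on log axes, of the 4 genes called between TX SCI and CONT SCI; each point is 1 rat, bars are group medians, and the dashed line divides the Exercise set from the In-Cage set. At ENSRNOG00000033923 the TX SCI rats (0.328 to 0.918 CPM) lie with the In-Cage rats and far below CONT SCI (9.15 to 13.5 CPM), and at ENSRNOG00000014254 they lie above all contused rats of the Exercise set.

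The sizes of the differences were mostly small. Over all genes tested, log2 fold changes had a median absolute size of 0.20 and a median standard error of 0.20. A fold change of at least 2 was fitted for 286 genes, 196 higher and 90 lower in TX SCI, and without TX SCI replicate 4 for 437 genes, 320 higher and 117 lower. In 120 of the 286 genes the ranges of the groups did not overlap, 73 with TX SCI above and 47 with TX SCI below. Only 84 of the 286 had a mean of at least 100 reads, and 68 of those had an unadjusted p under 0.05 in edgeR. Over all genes tested, with no condition on size, the ranges did not overlap in 1183 genes (9.49%), of which 509 (4.08%) were higher and 674 (5.41%) lower in every transected rat. Without TX SCI replicate 4 this number was 2563 (20.6%), 1195 higher and 1368 lower, where 3 rats rather than 4 had to lie beyond the contused rats.

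Among the genes with an unadjusted p under 0.05, direction varied with abundance. Of the 316 genes with a mean under 100 reads and an unadjusted p under 0.05 in edgeR, 223 were higher in TX SCI and 93 lower. Of 803 such genes with a mean of 100 to 1000 reads, 452 were higher and 351 lower. Of 554 with a mean of at least 1000 reads, 159 were higher and 395 lower. These lists held 9.91%, 13.2% and 17.3% of the 3190, 6074 and 3204 genes tested in the 3 classes. Of the genes in the lists, 70.6%, 56.3% and 28.7% were higher after transection. With RLE scaling in place of TMM the shares higher were 72.5%, 61.9% and 33.4%. With 1 rat left out in turn they were 64.5% to 81.5%, 52.0% to 67.2% and 22.1% to 45.3%. These are descriptions of the lists at an unadjusted p and carry no test of their own. The share higher among all genes of a class, listed or not, is not given beside them. The scaling factors moved with the groups, at 1.04 to 1.13 for TX SCI replicates 1 to 3 and 0.943 to 0.966 for CONT SCI (0.943 for TX SCI replicate 4), and their part in the result was not tested beyond the RLE values.

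The number of genes called depended on TX SCI replicate 4. Without it, edgeR called 234 genes (1.85% of 12617), 152 higher and 82 lower, whereas without any one of the other 7 rats it called 1 to 3. All 5 groups of the set fitted together gave 135 genes (1.03% of 13059) with this rat and 190 without it. The genes called higher without this rat had a median log2 fold change of 0.98, and 73 of them were changed at least 2-fold. For the genes called lower the median size was 0.66, and 19 were changed at least 2-fold. A mean of at least 100 reads was found for 191 of the 234. DESeq2 on the same 7 rats called 1017 genes (7.75% of the 13116 to which it gave an adjusted p), 532 higher and 485 lower. Of the 234 genes, 110 were also called by DESeq2 on all 8 rats, which is 47.0% of the 234 and 30.3% of the 363 genes DESeq2 called.

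**Figure D4:**
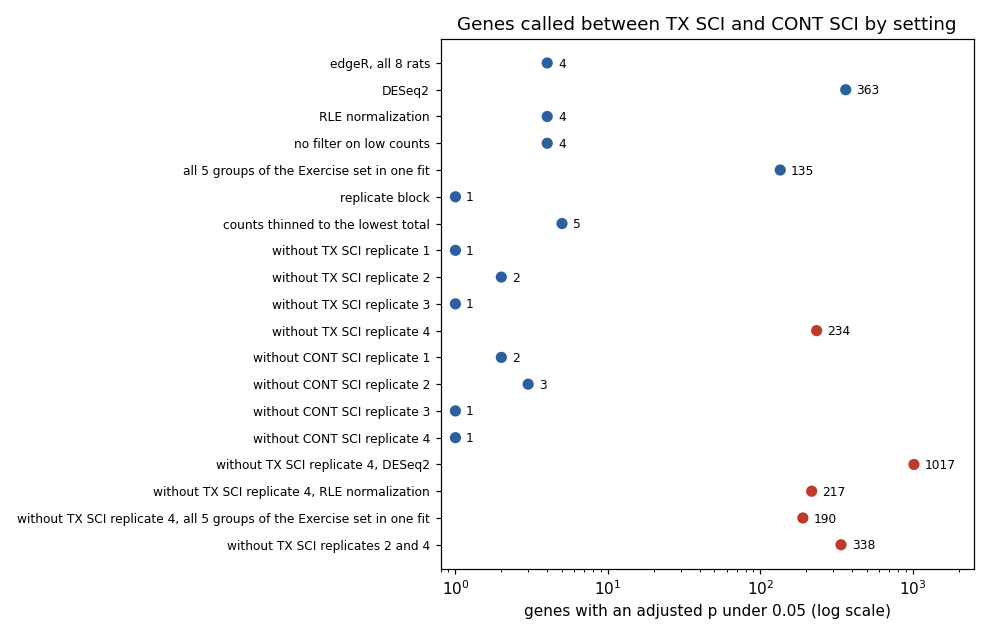
Number of genes with an adjusted p under 0.05 between TX SCI and CONT SCI (horizontal log axis) by setting, 1 point per setting, with red points where TX SCI replicate 4 was left out. The red points lie at 190 to 1017 genes; with edgeR on these 2 groups and this rat included, every count is 5 or lower.

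The genes called without TX SCI replicate 4 were looked up in that rat, which had not been used to call them. Of the 234, 229 were also tested with 8 rats. TX SCI replicate 4 was beyond the range of the 4 CONT SCI rats on the same side as the other transected rats in 108 of them (47.2%), within that range in 57 (24.9%) and beyond it on the opposite side in 64 (27.9%). For the genes called lower, it was on the same side in 50 of 80 (62.5%) and on the opposite side in 11 (13.8%). For the genes called higher, it was on the same side in 58 of 149 (38.9%) and on the opposite side in 53 (35.6%). Among all 6338 genes that were higher in the other 3 transected rats, called or not, it was on the same side in 33.9% and on the opposite side in 35.9%. Among all 6130 genes that were lower in them, it was on the same side in 41.0% and on the opposite side in 29.2%. All these shares use the same 4 CONT SCI rats that entered the calls, and the differences between them were not tested.

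**Figure D5:**
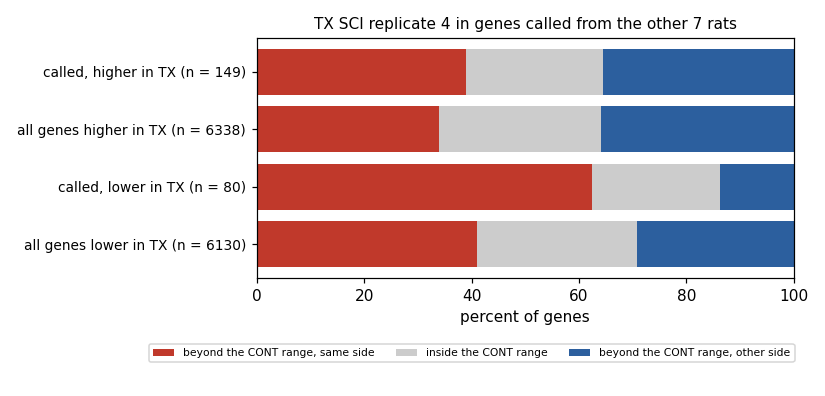
Position of TX SCI replicate 4 against the range of the 4 CONT SCI rats, in percent of genes (horizontal axis), for genes called higher (149) or lower (80) from the other 7 rats and for all genes higher (6338) or lower (6130) in the other 3 transected rats. Red stands for genes in which the rat lies beyond the CONT SCI range on the side of the other transected rats, grey for genes within the range and blue for genes beyond it on the opposite side; red takes 62.5% of the genes called lower against 41.0% of all lower genes, and 38.9% of the genes called higher against 33.9% of all higher genes.

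The uninjured level was also set beside both injured groups. The mean of No SCI on the log2 scale was nearer to the mean of CONT SCI in 66.1% of all 12468 genes, and in 70.4% without TX SCI replicate 4. In the genes whose ranges did not overlap, it was nearer to CONT SCI in 435 of the 509 that were higher in TX SCI (85.5%) and in 574 of the 674 that were lower (85.2%), and without TX SCI replicate 4 these shares were 86.9% of 1195 and 85.4% of 1368 genes. It was nearer to CONT SCI in 201 of the 229 genes called without TX SCI replicate 4 (87.8%). The No SCI rats were taken at a time equivalent to 11.5 weeks, that of CONT SCI, so these shares too leave injury and time joined. A group whose rats vary more has a less certain mean, and the spread was larger in TX SCI, so the shares have no known value for the case of no difference and are given as descriptions only.

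Against all the other 18 rats of the Exercise set, the 4 transected rats lay beyond every one of them in 54 of 13059 genes (0.414%), 22 above and 32 below. For CONT SCI this number was 11 (0.0842%) and for No SCI 22 (0.168%). None of the 4 genes called between TX SCI and CONT SCI was among the 54. Against the 14 contused rats alone, TX SCI was beyond all of them in 78 genes (0.597%), 33 above and 45 below, and in 189 without TX SCI replicate 4. With 1 rat of the group left out the number was 85 to 141 for TX SCI and 16 to 35 for CONT SCI. For No SCI it was 30 to 43 without replicate 1, 3 or 4. Without No SCI replicate 2 it was 128, which lay within the range of TX SCI. The order of TX SCI and No SCI thus depended on the rats left out: 128 was above TX SCI without replicate 2 (85) or 3 (121). It was below TX SCI without replicate 1 (141) or 4 (135).

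The transected rats also varied in genes that set the In-Cage rats apart from CONT SCI and No SCI. In 1503 genes, all 15 In-Cage rats lay on one side of all CONT SCI and No SCI rats of the Exercise set. The In-Cage rats were higher in 575 of these genes and lower in 928. No share over all genes is given beside this number or the shares below, which therefore only compare rats with each other. TX SCI replicates 2 and 4 were nearer to the In-Cage mean in 36.2% and 42.4% of these genes, and replicates 1 and 3 in 12.6% and 11.9%. The 10 exercised rats, which like TX SCI took no part in choosing the genes, were nearer to it in 3.79% to 19.8%. TX SCI replicates 2 and 4 were thus above all exercised rats and replicates 1 and 3 among them. The same ranking was seen over all genes tested. There the mean distances to the CONT SCI rats were 56.5 and 63.8 for replicates 2 and 4, against 44.2 and 43.4 for replicates 1 and 3.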

How the data were processed

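Liver RNA was enriched for poly(A) RNA and sequenced as single-end reads on an Illumina NextSeq 500. Alignment by the authors used STAR and the rn6 build, and HTSeq assigned reads to Ensembl genes by strand, with mitochondrial genes excluded. The authors deposited the resulting raw counts, which are not normalized. Groups and replicate numbers were taken from the sample labels.

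From these counts, TX SCI (4 rats) was tested against CONT SCI (4 rats) with edgeR 4.0.16 in R 4.3.3 (TMM scaling; genes kept by filterByExpr at min.count 10 and min.total.count 15; robust glmQLFit, then glmQLFTest). Genes were called at 0.05 after Benjamini-Hochberg adjustment. The standard error is the log2 fold change divided by the square root of F. Separation and spread were computed on log2(CPM + 1) and tested by exact permutation of the rats. No 2 libraries of a group agreed within sampling noise (lowest reduced chi-square 31.0 over 12 pairs). The scripts were tested on simulated data.

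Alternatives were DESeq2 1.42.0, RLE normalization, no filter, one model for all 5 groups of the set, replicate number as a block, counts thinned to 28427149 and each rat left out. For separation and spread they were rlog values, the 500 most variable genes and scaled genes. The settings that combined the removal of TX SCI replicate 4 with another change, the classes of abundance and the comparisons with the other rats were added after the data were seen. The members and lists were chosen with earlier results of these data known. Genes were to be named where the adjusted p was under 0.05, the mean at least 100 counts and the groups did not overlap, with at most 2 identifiers per direction. ENSRNOG00000037380 fell under that mean and was named after its values were seen, because only 4 genes were called.

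The RefSeq table used (47357 genes) matched 0 of the 24613 identifiers. Gene lists, cell type markers, promoter motifs and sequences were therefore not analysed here.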

Additional observations from a re-analysis of the deposited data

Results flagged for a closer look

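Single samples far from the rest of their group were sought by Dixon's ratio in 44 groups of values, of which chance alone would mark about 1 in 20, and 4 were marked. TX SCI replicate 4 was marked for its number of genes with at least 1 read, 14682 against 15463 to 15624 in the other 3 transected rats, a ratio just at the critical value. The same rat was marked for its distance to the centre of its group, 48.0 against 30.5 to 31.2. Its total of counted reads was within the range of the others.

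The other 2 marks fell outside TX SCI and CONT SCI. At ENSRNOG00000013867, 1 CONT SCI + SWW rat had 14.1 CPM against 5.17 to 7.22 CPM in the other 4. At ENSRNOG00000014254, 1 contused In-Cage rat in a large cage had 402.0 CPM against 77.4 to 118.3 CPM in the other 4.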

How the results depend on the processing

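The 4 calls (2 higher and 2 lower in TX SCI) depended on the test and on the rats. DESeq2 called 363 genes (201 higher, 162 lower), one model for all 5 groups of the set gave 135 (82 higher, 53 lower), and 63 of the 234 genes called without TX SCI replicate 4 were among these 135. RLE normalization and no filter on low counts gave 4 each, and thinned counts gave 5. With 1 rat left out, the count was 1 to 234 (0 to 152 higher, 1 to 82 lower), with the top of each range reached without TX SCI replicate 4. In settings chosen after the data were seen, leaving out that rat gave 1017 genes with DESeq2 (532 higher, 485 lower), 217 with RLE (142 higher, 75 lower) and 190 with all 5 groups in one fit (129 higher, 61 lower), and leaving out TX SCI replicates 2 and 4 gave 338 (256 higher, 82 lower). The cause of these changes was not tested.

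The replicate block gave 1 call (0 higher, 1 lower), ENSRNOG00000033923. Rats with the same number share only that number: the correlations of their deviations were -0.144 to 0.273 over 4 pairs, and 1 of the 4 transected rats correlated best with the contused rat of its own number.

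The separation was 20.8% to 33.7% with 1 rat left out, and the difference in spread was 3.93 to 15.9. With the 500 most variable genes the difference in spread was 6.24 (exact permutation p = 0.0571). The separation of all 8 rats was 23.2% with those genes (exact permutation p = 0.0571) and 22.6% without the filter (exact permutation p = 0.0857). With rlog values it was 22.8% and with scaled genes 21.6% (exact permutation p = 0.114 for both). None of the 4 named genes changed direction in the 18 alternatives run. ENSRNOG00000033923 stayed called in all 18, and ENSRNOG00000013867, ENSRNOG00000037380 and ENSRNOG00000014254 in 12, 10 and 9. The alternatives for gene lists and promoter motifs were not run, because no identifier could be matched to a gene name. Low read numbers limit the fold changes of ENSRNOG00000037380, with 14 to 24 reads in CONT SCI, and of ENSRNOG00000033923, with 11 to 33 reads in TX SCI.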
